A study of Mus musculus with 6 samples.

Results

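The clustered protocadherins were examined in embryonic mouse heart cells that expressed the H3K9M histone mutant or wild-type H3.3. All rows of the deposited count table whose gene symbol begins with Pcdha, Pcdhb or Pcdhg were taken. This gave 56 of 15159 rows, namely 14 of the alpha cluster, 19 of the beta cluster and 22 of the gamma cluster. The remaining row is Pcdha7-g, a RefSeq gene model that joins the variable exon of Pcdha7 to the constant exons of the gamma cluster. No member passed the edgeR quasi-likelihood test at an adjusted p of 0.05 in either direction. Of the beta genes 17 of 19 had a lower fitted level in H3K9M cells, the gamma cluster as a whole differed by less than the spread between libraries, and the alpha genes had few reads in either group.

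Cells were taken from E18.5 hearts of C57BL/6 x 129S4/SvJae embryos. H3K9M cells carried an inducible histone H3.3 in which lysine 9 is replaced by methionine, and H3WT cells carried an inducible wild-type H3.3. Both groups received doxycycline at 2 µg/ml on days 0, 1 and 2 and grew for 4 days on PDMS, a soft silicone, with a stiffness of 13 kPa. Each group has 3 libraries of polyadenylated RNA. The comparison asks which transcripts differ when H3K9M takes the place of wild-type H3.3 as the induced histone. Both groups kept their own H3.3 genes, and the sources used here do not name the promoter of the transgene. No label states that libraries come from different animals or cultures, and p-values thus describe only how far these samples spread, which may be technical.

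Clustered protocadherins are cadherin-family adhesion proteins best known from neurons, where combinations of them let a cell tell its own branches from those of other cells. In the alpha and gamma clusters each gene has its own large variable exon, which codes for the extracellular part, and this exon is spliced to constant exons that all genes of the cluster share. Beta genes have no shared constant exons. Promoters of single genes are chosen with the help of the insulator protein CTCF and cohesin, and they are known to be held silent by DNA methylation, by the chromatin protein Smchd1 and by the H3K9 methyltransferase Setdb1.

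Total counts per library ran from 58138542 to 59650771 in H3K9M cells and from 55550379 to 67994773 in H3WT cells. Of 14758 tested genes, 155 were lower and 138 higher in H3K9M cells (edgeR, adjusted p under 0.05), and the median log2 fold change over all of them was -0.00245. The H3.3 genes H3f3a (1360 ± 109 CPM in H3K9M, 1465 ± 125 CPM in H3WT, edgeR adjusted p = 0.653) and H3f3b (216 ± 12.6 CPM in H3K9M, 241 ± 18.1 CPM in H3WT, edgeR adjusted p = 0.394) did not pass the test. They cannot check the labels, because both groups carry an H3.3 transgene. The female transcript Xist spanned 136 to 265 CPM in H3K9M libraries and 71.3 to 376 CPM in H3WT libraries, and the Y-linked Ddx3y spanned 29.0 to 55.6 CPM in H3K9M and 29.5 to 73.4 CPM in H3WT. Every library thus held RNA of both sexes, in unequal mixtures whose part in the results was not tested. Summed cardiomyocyte markers were 35890 to 40380 CPM in H3K9M and 34090 to 41880 CPM in H3WT, with all 15 genes of that list detected. Of these markers edgeR called 1, the atrial myosin light chain Myl7, which rose to 86.1 ± 22.4 CPM in H3K9M, against 32.4 ± 7.43 CPM in H3WT (log2 fold change 1.41 ± 0.22, adjusted p = 0.0221). DESeq2 called 2 higher and limma-voom 1. Over all genes DESeq2 called 3.84% lower and 3.35% higher, and limma-voom called 112 lower and 110 higher of 14758.

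The deposited rows of the alpha and gamma genes hold mainly reads that a whole cluster shares. In the GENCODE M21 annotation of GRCm38 (mm10), all matched members lie on the plus strand of chromosome 18. The alpha rows span positions 36930285 to 37187657 and share 2860 exon bases between 37156155 and 37187657. The beta genes lie from 37294812 to 37524479 and share none, apart from a short overlap of Pcdhb21 and Pcdhb22. The gamma rows span 37661793 to 37841873 and share 2116 exon bases between 37825021 and 37841870. A transcript was matched for 54 of the 56 members, the exceptions being Pcdha7-g and Pcdhgb8.

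In the counts, 5 alpha genes (Pcdha1, Pcdha2, Pcdha7, Pcdha8 and Pcdhac1) had identical rows in all 6 libraries. The Pcdha7-g row lay below every gamma row in all 6 libraries, by 62 to 118 reads. Since the Pcdha7 row did not differ from those of the other alpha genes named, the Pcdha7-g row was taken as the reads shared by the gamma cluster. This assumes that the variable exon of Pcdha7 had no reads, and no transcript of Pcdha7-g was matched to check it. For the alpha cluster the lowest alpha row of each library was taken. What remains of a row is called its own reads, and this split was chosen after the counts were seen. In the gamma cluster, own reads made up 0.276% to 5.08% of a row in genes other than Pcdhgc3. The 22 deposited gamma rows are therefore not 22 separate measurements.

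**Figure D1:**
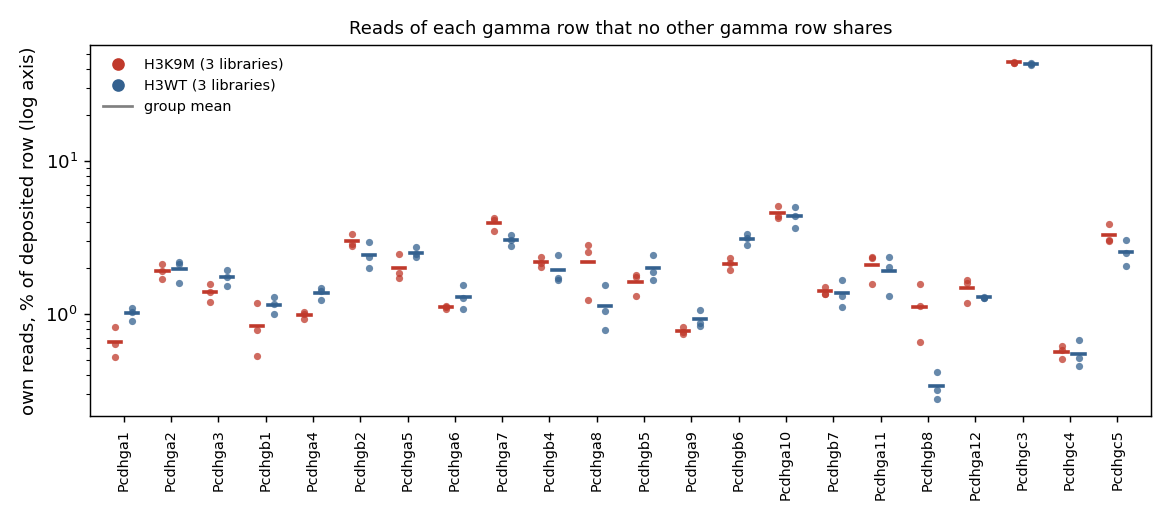
Own reads of each gamma gene as a percentage of its deposited row, on a log axis, with genes in chromosome order, 1 point per library and a line at the group mean. Pcdhgc3 stands far above the others, which lie between 0.276% and 5.08% in H3K9M and H3WT libraries.

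The split can be set against exon length. Gamma shared reads had a density of 9628 ± 146 reads per kilobase in H3K9M libraries and 10580 ± 50.3 in H3WT libraries (SD, n = 3 each, not scaled for depth). The own reads of all gamma genes with a matched transcript, summed and set over their exon lengths, had 9375 ± 289 reads per kilobase in H3K9M and 9993 ± 443 in H3WT. The ratio of own to shared density was 0.952, 0.98 and 0.988 in H3K9M libraries, and 0.948, 0.899 and 0.988 in H3WT libraries. Each library therefore held about as many reads per kilobase over the variable exons together as over the constant exons. For the alpha cluster the densities were 15.03 ± 2.48 (shared) and 14.7 ± 4.64 (own) reads per kilobase in H3K9M, and 18.5 ± 6.1 (shared) and 19.1 ± 7.92 (own) in H3WT.

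With reads shared by a cluster counted once, 1092, 1216 and 1280 reads fell on the beta cluster in H3K9M libraries, against 2542, 2146 and 2147 in H3WT libraries. The beta values are plain row sums, so reads on the overlap of Pcdhb21 and Pcdhb22 may be counted for both genes. The gamma cluster took 43675, 45800 and 44929 reads in H3K9M and 48118, 47226 and 49373 in H3WT. The alpha cluster took only 101, 91 and 64 reads in H3K9M and 75, 139 and 98 in H3WT. Gamma transcripts thus supplied most protocadherin reads in all 6 libraries.

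Scaled as CPM, the beta cluster summed to 18.8, 20.2 and 22.5 in H3K9M libraries and to 45.7, 39.0 and 31.8 in H3WT libraries. Its means were 20.5 ± 1.86 CPM in H3K9M and 38.8 ± 6.93 CPM in H3WT, a log2 difference of -0.91 beside a larger group SD of 0.262 on that scale. The groups did not overlap. The gamma cluster averaged 767 ± 19.5 CPM in H3K9M and 818 ± 74.8 CPM in H3WT, a log2 difference of -0.0886 with an SD of 0.136, and its groups overlapped. The alpha cluster averaged 1.46 ± 0.311 CPM in H3K9M and 1.77 ± 0.651 CPM in H3WT, a log2 difference of -0.247 with an SD of 0.494. That alpha difference was 0.036 without H3WT replicate 2 and -0.62 without Pcdhac2. In bulk RNA, fewer cells of a type and less RNA per cell cannot be told apart.

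**Figure D2:**
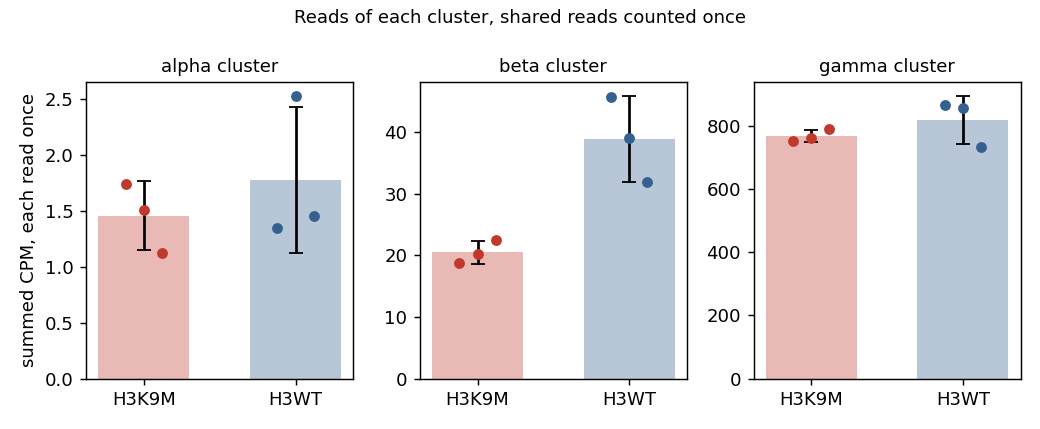
Summed CPM of the alpha, beta and gamma clusters with shared reads counted once, except on the overlap of Pcdhb21 and Pcdhb22. Bars are means, error bars are SDs over 3 libraries and points are libraries, with H3K9M left of H3WT. Only the beta groups are apart, at 18.8 to 22.5 CPM in H3K9M and 31.8 to 45.7 CPM in H3WT.

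Each beta gene codes for a whole adhesion protein without the tail shared by the alpha or gamma proteins. Of the 19 beta genes, 17 had a negative log2 fold change, against 50.5% of all tested genes, and their median was -1.06. In 10 of the 19 (52.6%), every H3K9M library lay below every H3WT library, against 11.3% of all tested genes, and in 0 every H3K9M library lay above, also against 11.3%. At an unadjusted p under 0.05, 9 were lower and 0 higher in H3K9M, where 8.61% and 7.78% of all genes were. After adjustment edgeR called 0 of the 19, against 1.05% lower and 0.935% higher over all genes, and the smallest adjusted p was 0.0569. DESeq2 called 6 lower and 0 higher (it called 3.84% of all genes lower and 3.35% higher), and limma-voom called 0. In the fits without 1 library edgeR called 0 of them.

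Pcdhb17 had the smallest adjusted p of the cluster. Its level was 2.85, 3.59 and 3.96 CPM in H3K9M libraries, against 6.31, 6.36 and 6.54 CPM in H3WT libraries. The H3WT values lay close together and all above the H3K9M values. Its log2 fold change was -0.88 ± 0.19 (SE; edgeR adjusted p = 0.057; DESeq2 adjusted p = 0.00121).

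Pcdhb14 had 0.512, 0.79 and 1.12 CPM in H3K9M libraries and 2.03, 3.13 and 2.66 CPM in H3WT libraries. The groups did not overlap. Its log2 fold change was -1.69 ± 0.38 (edgeR adjusted p = 0.0661; DESeq2 adjusted p = 0.000866). It is the only member past 0.05 in the authors' deposited table, which gives a log2 fold change of -2.24 and an adjusted p of 0.000698.

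Pcdhb19 and Pcdhb3 came next. Pcdhb19 had 2.24, 2.06 and 1.66 CPM in H3K9M libraries, against 5.22, 3.84 and 3.39 CPM in H3WT libraries, and its log2 fold change was -1.06 ± 0.26 (edgeR adjusted p = 0.081; DESeq2 adjusted p = 0.00534). Pcdhb3 had 0.256, 0.28 and 0.436 CPM in H3K9M libraries, against 1.05, 1.21 and 1.07 CPM in H3WT libraries, and its log2 fold change was -1.77 ± 0.45 (edgeR adjusted p = 0.0928; DESeq2 adjusted p = 0.00955). In both genes all H3K9M libraries were below all H3WT libraries.

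Pcdhb5 and Pcdhb20 were the other genes that DESeq2 called. Pcdhb5 had 0.751, 0.773 and 0.873 CPM in H3K9M libraries, against 2.39, 2.41 and 1.31 CPM in H3WT libraries (log2 fold change -1.35 ± 0.36, edgeR adjusted p = 0.109; DESeq2 adjusted p = 0.0152). Pcdhb20 had 1.66, 0.839 and 1.5 CPM in H3K9M libraries, against 4.19, 3.33 and 2.25 CPM in H3WT libraries (-1.29 ± 0.36, edgeR adjusted p = 0.117; DESeq2 adjusted p = 0.0139). In each of these genes H3WT replicate 3 was the lowest H3WT library, and it still lay above all H3K9M libraries.

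The groups were also apart in Pcdhb4, Pcdhb7, Pcdhb9 and Pcdhb16. Pcdhb4 had 0.137, 0.214 and 0.646 CPM in H3K9M and 1.03, 1.26 and 1.16 CPM in H3WT (log2 fold change -1.79 ± 0.61, edgeR adjusted p = 0.194). Pcdhb7 had 0.546, 0.329 and 1.01 CPM in H3K9M and 1.84, 1.53 and 1.51 CPM in H3WT (-1.37 ± 0.46, edgeR adjusted p = 0.191). H3K9M replicate 3 was the highest H3K9M library in both, and without it the log2 fold change of Pcdhb4 was -2.7. Pcdhb16 had 0.734, 1.12 and 0.925 CPM in H3K9M and 3.03, 1.57 and 1.62 CPM in H3WT (-1.16 ± 0.39, edgeR adjusted p = 0.185). Pcdhb9, with 0.171, 0 and 0.401 CPM in H3K9M and 0.713, 0.504 and 0.558 CPM in H3WT, had the widest error of these genes (-1.63 ± 0.95, edgeR adjusted p = 0.45).

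In the other 9 beta genes the groups overlapped. Pcdhb22, the highest beta gene by CPM, had 5.34, 6.43 and 5.72 CPM in H3K9M libraries, against 9.59, 7.84 and 5.91 CPM in H3WT libraries (log2 fold change -0.41 ± 0.20, edgeR adjusted p = 0.362). Pcdhb2 had 0.478, 0.362 and 0.454 CPM in H3K9M and 1.27, 1.04 and 0.455 CPM in H3WT (-1.09 ± 0.52, edgeR adjusted p = 0.347). Pcdhb21 had 0.717, 0.773 and 1.24 CPM in H3K9M and 2.6, 1.39 and 1.16 CPM in H3WT (-0.91 ± 0.43, edgeR adjusted p = 0.344). In Pcdhb2 and Pcdhb21 H3WT replicate 3 lay among the H3K9M libraries. Without H3WT replicate 1 the log2 fold change of Pcdhb21 was -0.49 and that of Pcdhb22 -0.24. Pcdhb18 averaged 1.13 ± 0.185 CPM in H3K9M and 1.4 ± 0.617 CPM in H3WT. Pcdhb8, Pcdhb11 and Pcdhb13 averaged under 1 CPM in both groups, with log2 fold changes of -0.56, -0.84 and -0.94, and without H3K9M replicate 1 that of Pcdhb11 was -0.345. The only positive values were those of Pcdhb6 (0.24 ± 1.14) and Pcdhb12 (0.27 ± 0.61), both under 1 CPM. Exons of Pcdhb12 lie under an opposite-strand gene for 1927 bases, and the sources used here give no strand setting for the counting.

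**Figure D3:**
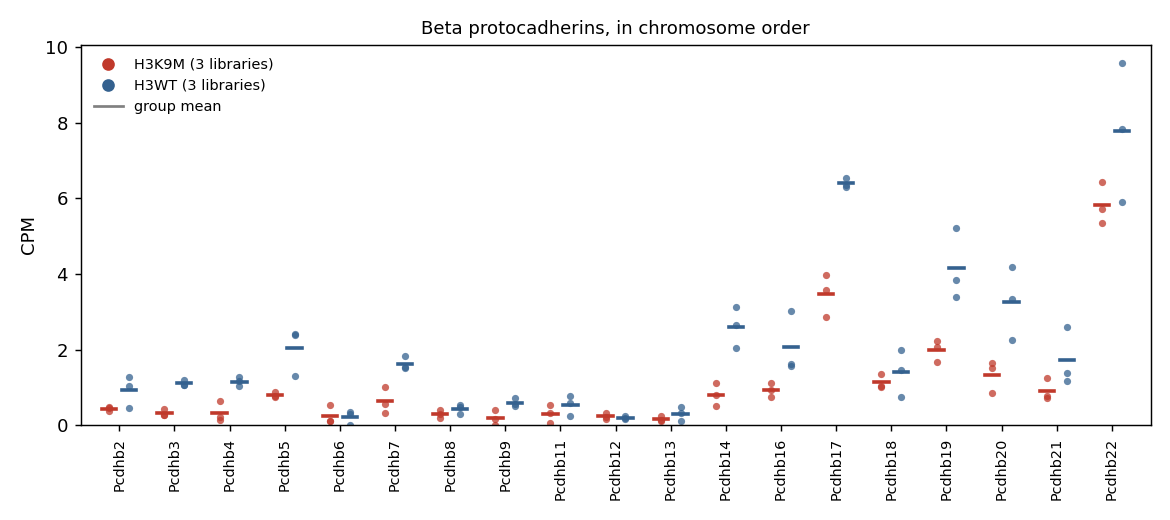
CPM of the 19 beta genes in chromosome order, 1 point per library and a line at each group mean, with H3K9M left of H3WT. In 10 genes, among them Pcdhb17, Pcdhb14 and Pcdhb19, all H3K9M points lie below all H3WT points.

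Per kilobase of exon that no other member shares, the highest beta levels were those of Pcdhb22 (0.948 ± 0.0899 CPM per kilobase in H3K9M, 1.26 ± 0.299 in H3WT) and Pcdhb17 (0.744 ± 0.121 in H3K9M, 1.37 ± 0.0259 in H3WT). For Pcdhb22 this length was 6154 of its 6609 exon bases, so its level over all its exon bases is lower than given. Pcdhb20 followed in H3WT cells with 0.915 ± 0.273 CPM per kilobase, against 0.374 ± 0.122 in H3K9M cells. Across the 19 genes, log2 fold change had a Spearman correlation of 0.368 with order along the chromosome and of -0.205 with mean CPM. These are descriptions over genes that share libraries and a locus.

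Markers of other cell types that the culture could hold were read beside the beta genes, where edgeR called 1.05% of all genes lower and 0.935% higher. DESeq2 called 3.84% of all genes lower and 3.35% higher, and limma-voom called 112 lower and 110 higher of 14758. Of 15 endothelial markers 13 were negative and 2 (Npr3 and Nos3) were lower in edgeR, 4 in DESeq2 and 1 in limma-voom. At an unadjusted p under 0.05 in edgeR, 8 were lower and 0 higher, where 8.61% and 7.78% of all genes were. They summed to 495 to 579 CPM in H3K9M and 565 to 689 CPM in H3WT. Eng, the highest of them, averaged 332 ± 15.1 CPM in H3K9M and 328 ± 23.6 CPM in H3WT. All 4 tested neuron markers were negative, and Gap43, a growth cone gene, fell to 0.411 ± 0.132 CPM in H3K9M, against 2.48 ± 0.974 CPM in H3WT (log2 fold change -2.59 ± 0.44, edgeR adjusted p = 0.0313). DESeq2 called 1 neuron marker and limma-voom 0. The neuron list, mostly Tubb3, summed to 135 to 201 CPM in H3K9M and 169 to 257 CPM in H3WT, and its genes Snap25, Syt1, Rbfox3, Stmn2, Th and Chrna3 were not analysed here. Fibroblast markers summed to 23940 to 32230 CPM in H3K9M and 28150 to 34380 CPM in H3WT, with 7 of 12 negative, and in edgeR 0 were lower and 1, Ddr2, higher (0.66 ± 0.10, adjusted p = 0.021). DESeq2 called 1 fibroblast marker lower and 2 higher, and limma-voom 0 and 1. Smooth muscle and pericyte markers summed to 5680 to 6248 CPM in H3K9M and 5970 to 7710 CPM in H3WT, with 6 of 10 negative. Macrophage markers summed to 200.5 to 258 CPM in H3K9M and 132 to 482 CPM in H3WT, with 8 of 10 negative. Epicardial markers (3 of 9 negative) summed to 149 to 201 CPM in H3K9M and 142 to 194 CPM in H3WT, and Schwann cell and glia markers (2 of 7 negative) to 9.94 to 13.0 CPM in H3K9M and 9.33 to 10.6 CPM in H3WT. The epicardial keratin Krt8 rose to 8.89 ± 4.40 CPM in H3K9M, against 0.917 ± 0.33 CPM in H3WT (3.27 ± 0.46, edgeR adjusted p = 0.0159), and limma-voom called 0 epicardial markers. At the same unadjusted threshold in edgeR, 1 epicardial marker was lower and 4 higher, 2 fibroblast markers lower and 2 higher, and 1 neuron marker lower and 0 higher. Schwann cell and glia markers had 1 lower and 1 higher, smooth muscle and pericyte 0 and 1, macrophage 0 and 0, and cardiomyocyte 0 and 2. DESeq2 called 0 lower and 1 higher in each of the epicardial, smooth muscle and pericyte, and Schwann cell and glia lists. The part of these lists in the beta values was not tested.

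The gamma genes were compared first as deposited, then by their own reads. All 22 deposited rows had a negative log2 fold change, within the narrow span of -0.137 to -0.0988, with adjusted p from 0.524 to 0.655 and overlapping groups. None was past an unadjusted p of 0.05 or called by edgeR, DESeq2 or limma-voom. That span lies around the value of the reads they share, which had 346, 344 and 357 CPM in H3K9M libraries, against 400, 408 and 331 CPM in H3WT libraries (log2 fold change -0.12 ± 0.09, edgeR adjusted p = 0.563). H3WT replicate 3 was the lowest of the 6 libraries and H3WT replicates 1 and 2 were the highest. The constant exons code for the cytoplasmic tail common to all gamma proteins.

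From own reads, 14 gamma genes had a negative and 8 a positive log2 fold change, against 50.5% negative over all genes, with a median of -0.0776. In 6 of the 22 (27.3%) every H3K9M library lay below every H3WT library, against 11.4% of all genes in the fit with shared reads taken out. In 1 (4.55%) every H3K9M library lay above, against 11.3%. At an unadjusted p under 0.05, 4 were lower and 2 higher (8.67% and 7.78% of all genes). After adjustment edgeR called 0, against 1.04% lower and 0.936% higher over all genes, and limma-voom called 0. DESeq2 called 2 lower and 1 higher, against 3.78% lower and 3.29% higher over all genes in that fit.

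Pcdhgc3, of the C type that neurons express beside their varied A and B genes, carried most of the gamma signal. It made up 66.6%, 67.1% and 65.3% of gamma own reads in H3K9M libraries, and 66.3%, 67.7% and 65.1% in H3WT libraries. Its own level was 270, 280 and 282 CPM in H3K9M libraries, against 308, 304 and 261 CPM in H3WT libraries. The groups overlapped, and the log2 fold change was -0.07 ± 0.09 (edgeR adjusted p = 0.757). Per kilobase it stood at 108 ± 2.46 CPM in H3K9M and 113 ± 10.3 CPM in H3WT, and the next gene, Pcdhga10, at 6.4 ± 0.796 CPM per kilobase in H3K9M and 6.57 ± 0.651 in H3WT. All 2613 own exon bases of Pcdhga10, and 1513 of those of Pcdhgc3, lie under exons of opposite-strand genes.

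**Figure D4:**
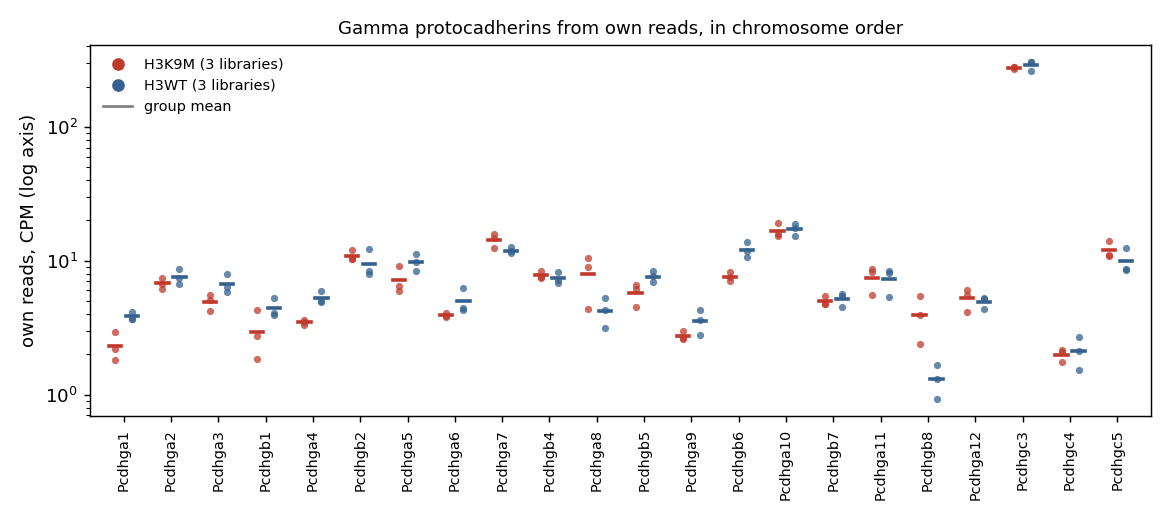
CPM from own reads of the 22 gamma genes in chromosome order on a log axis, 1 point per library and a line at each group mean, with H3K9M left of H3WT. Pcdhgc3 lies at 261 to 308 CPM. Pcdhgb6 is lower and Pcdhgb8 higher in every H3K9M library than in every H3WT library.

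Pcdhgb6 had the smallest adjusted p of the gamma genes. It had 8.18, 7.62 and 7.06 CPM in H3K9M libraries, against 13.7, 11.9 and 10.7 CPM in H3WT libraries, with no overlap. Its log2 fold change was -0.67 ± 0.15 (edgeR adjusted p = 0.0622; DESeq2 adjusted p = 0.00256). Relative to the reads shared by its cluster it had 23.6, 22.2 and 19.8 own reads per 1000 shared reads in H3K9M, against 34.3, 29.0 and 32.3 in H3WT, so its groups were also apart within the gamma cluster.

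Pcdhga4 and Pcdhga1 showed the same order. Pcdhga4 had 3.62, 3.47 and 3.32 CPM in H3K9M libraries, against 5.03, 5.9 and 4.95 CPM in H3WT libraries (log2 fold change -0.61 ± 0.18, edgeR adjusted p = 0.143; DESeq2 adjusted p = 0.0483). Pcdhga1 had 1.81, 2.21 and 2.95 CPM in H3K9M libraries, against 4.15, 3.68 and 3.67 CPM in H3WT libraries (-0.72 ± 0.25, edgeR adjusted p = 0.199). The groups were also apart in Pcdhga3, Pcdhga6 and Pcdhgb5, with log2 fold changes of -0.44 ± 0.19, -0.36 ± 0.21 and -0.40 ± 0.19. Own-read values depend on which reads count as shared. With the lowest gamma row of each library in that place, the log2 fold change was -1.32 for Pcdhga4, -1.54 for Pcdhgb1, -1.4 for Pcdhga9 and -0.87 for Pcdhga6, all more than 1.5 times as large. Pcdhga1, Pcdhgb8 and Pcdhgc4 set that lowest row and were left out, so their values could not be checked this way. Pcdhgb8 set it in all H3WT libraries, and Pcdhga1 or Pcdhgc4 in H3K9M libraries. The own reads so removed numbered 105, 105 and 118 in H3K9M libraries and 93, 72 and 62 in H3WT libraries. More reads were thus taken from each gamma gene in H3K9M, so lower values are partly built into this setting.

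Pcdhgb8 had the opposite order. RefSeq lists it as a pseudogene, and it had the fewest own reads of the gamma genes in H3WT cells. It had 3.94, 5.48 and 2.37 CPM in H3K9M libraries, against 1.67, 1.31 and 0.919 CPM in H3WT libraries, with no overlap (log2 fold change 1.60 ± 0.37, edgeR adjusted p = 0.0758; DESeq2 adjusted p = 0.00122). Per 1000 shared reads it had 11.4, 15.9 and 6.65 own reads in H3K9M, against 4.18, 3.2 and 2.77 in H3WT. Pcdhga8 had 4.34, 8.91 and 10.4 CPM in H3K9M, against 3.16, 4.3 and 5.26 CPM in H3WT (0.89 ± 0.33, edgeR adjusted p = 0.226), and its groups overlapped through H3K9M replicate 1. Pcdhga7 had 14.9, 12.5 and 15.8 CPM in H3K9M, against 12.6, 11.7 and 11.3 CPM in H3WT (0.27 ± 0.13, edgeR adjusted p = 0.338).

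Set over shared reads, 4 gamma genes (Pcdhga1, Pcdhga4, Pcdhga9 and Pcdhgb6) were lower and 2 (Pcdhga7 and Pcdhgb8) higher in every H3K9M library than in every H3WT library, and 16 overlapped. Set over the same shared reads, 5.47% of all other tested genes were lower and 12.5% higher in every H3K9M library. Pcdhgc3 had 781, 814 and 792 own reads per 1000 shared reads in H3K9M and 770, 744 and 786 in H3WT, which overlapped. Of the 12 A-type genes 8 had a negative log2 fold change from own reads (median -0.26), of the 7 B-type genes 4 (median -0.06), and of the 3 C-type genes 2 (median -0.07). The C-type genes Pcdhgc4 and Pcdhgc5 averaged 1.99 ± 0.217 and 11.9 ± 1.73 CPM in H3K9M, against 2.12 ± 0.594 and 9.9 ± 2.29 CPM in H3WT, with overlapping groups. The 8 genes that come first on the chromosome, Pcdhga1 to Pcdhga6, had 7 negative values with a median of -0.45. The 14 others had 7 negative values with a median of 0.000845. This division by position was chosen after the values were seen. Log2 fold change had a Spearman correlation of 0.501 with order along the chromosome over the 22 genes, given as a description.

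**Figure D5:**
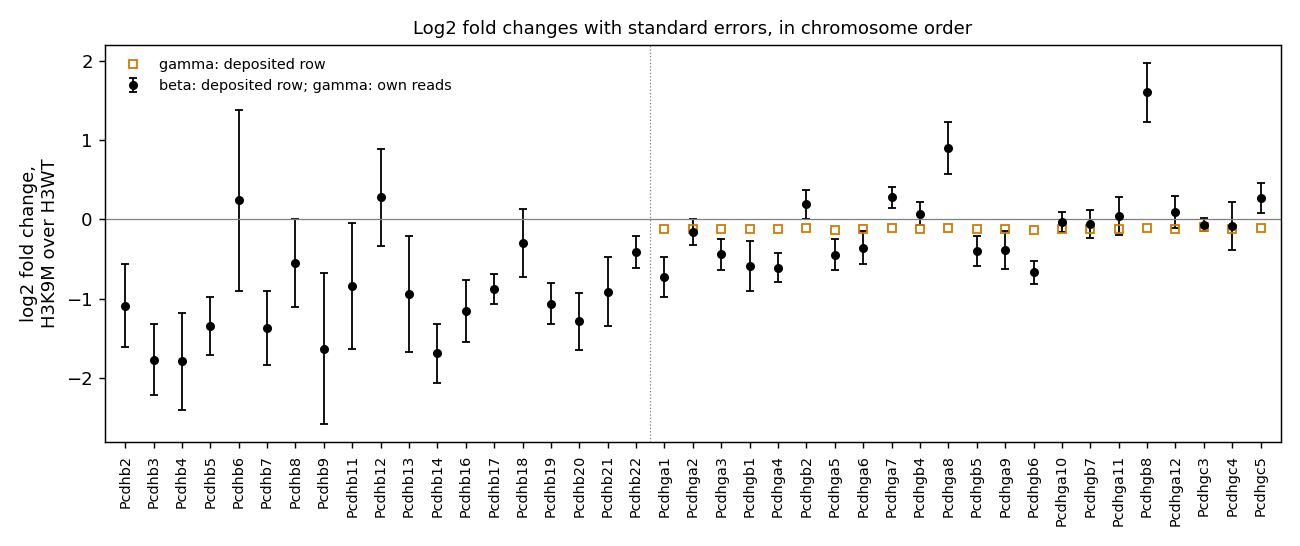
Log2 fold changes of H3K9M over H3WT with standard errors, beta genes left of the dotted line and gamma genes right of it, in chromosome order. Filled points are the deposited rows of beta genes and the own reads of gamma genes, and open squares are the deposited gamma rows. The squares all lie between -0.137 and -0.0988, while own reads run from -0.72 for Pcdhga1 to 1.60 for Pcdhgb8.

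The alpha genes were near the limit of detection. Their 14 deposited rows had adjusted p from 0.687 to 0.967, 13 negative log2 fold changes and a median of -0.281, and 0 were past an unadjusted p of 0.05 or called by edgeR, DESeq2 or limma-voom. These rows again hold mostly the same reads. The shared reads numbered 48, 46 and 35 in H3K9M libraries and 33, 65 and 61 in H3WT libraries, or 0.735 ± 0.109 CPM in H3K9M and 0.892 ± 0.294 CPM in H3WT, with overlapping groups.

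Only Pcdhac2, a C-type alpha gene, had enough own reads to be tested. It had 38, 30 and 29 own reads in H3K9M libraries and 17, 24 and 22 in H3WT libraries. Its level was 0.654, 0.498 and 0.509 CPM in H3K9M, against 0.306, 0.436 and 0.326 CPM in H3WT. Every H3K9M library lay above every H3WT library, and the log2 fold change of 0.64 ± 0.49 did not pass the test (edgeR adjusted p = 0.564). The other 13 alpha genes together had 120 own reads in all 6 libraries, at most 20 in a library, for Pcdha10 in H3WT replicate 2. In 10 alpha genes own reads were under 10 in every library. The 5 genes at 0 own reads (Pcdha1, Pcdha2, Pcdha7, Pcdha8 and Pcdhac1) have the lowest alpha row, so their 0 follows from the split. If that row holds shared reads only, each has an upper limit of 3 reads. This is 0.0498 to 0.0527 CPM in H3K9M and 0.0445 to 0.0545 CPM in H3WT, for counting error only. 

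The authors' deposited comparison lists 52 of the 56 members. In the authors' deposited table, 13 of its 15 beta genes had a negative log2 fold change, and after Pcdhb14 the smallest adjusted p values were those of Pcdhb20 (0.0699) and Pcdhb17 (0.0807). The gamma rows ran from -0.177 to -0.117 in the authors' deposited table. Its mean normalised count had a median of 0.252 times the mean deposited count over the 14412 genes found in both, so it was not computed at the depth of the deposited counts.

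The next 33 genes act on the chromatin of the clusters (CTCF, cohesin and its loaders, H3K9 and DNA methylation enzymes and their partners). Of these 1 was higher and 0 lower in edgeR, against 0.935% and 1.05% of all genes. At an unadjusted p under 0.05 in edgeR, 4 were lower and 1 higher, where 8.61% and 7.78% of all genes were. DESeq2 called 2 lower and 1 higher, against 3.84% and 3.35% of all genes, and limma-voom 0 and 1. Atf7ip, the partner of Setdb1, rose to 152, 131 and 147 CPM in H3K9M libraries, against 75.5, 72.8 and 78.5 CPM in H3WT libraries (log2 fold change 0.92 ± 0.08, edgeR adjusted p = 0.00222). Setdb1 itself averaged 42.9 ± 0.703 CPM in H3K9M and 41.9 ± 1.29 CPM in H3WT (edgeR adjusted p = 0.875). Smchd1 averaged 56.6 ± 2.74 CPM in H3K9M and 69.4 ± 5.67 CPM in H3WT (-0.29 ± 0.08, edgeR adjusted p = 0.129). Setdb1 and Smchd1 were named after their values were seen. The cohesin regulator Pds5b averaged 51.1 ± 2.98 CPM in H3K9M and 67.2 ± 6.39 CPM in H3WT (-0.40 ± 0.09, edgeR adjusted p = 0.0724). The cohesin subunit Rad21 and the corepressor Trim28, the highest of the list, had log2 fold changes of -0.02 ± 0.08 and -0.16 ± 0.08. The list's median was -0.09, with 24 of 33 negative.

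Of 11 tested non-clustered protocadherins 0 passed in edgeR, 5 being negative and 6 positive. At an unadjusted p under 0.05 in edgeR, 2 were lower and 3 higher, where 8.61% and 7.78% of all genes were. DESeq2 called 2 lower and 2 higher, against 3.84% and 3.35% of all genes, and limma-voom called 0. The highest, Pcdh7, averaged 337 ± 30.3 CPM in H3K9M and 294 ± 16.2 CPM in H3WT. Pcdh19 averaged 44.7 ± 3.51 CPM in H3K9M and 26.6 ± 6.76 CPM in H3WT (log2 fold change 0.75 ± 0.17, edgeR adjusted p = 0.0737), whereas Pcdh17 averaged 0.618 ± 0.0708 CPM in H3K9M and 1.67 ± 0.543 CPM in H3WT (-1.43 ± 0.40, edgeR adjusted p = 0.116). Pcdh18 had -0.49 ± 0.14 (edgeR adjusted p = 0.127). DESeq2 gave adjusted p of 0.00103, 0.0198 and 0.0234 for Pcdh19, Pcdh17 and Pcdh18. In edgeR Pcdh19 passed without H3WT replicate 1 (adjusted p = 0.027) and Pcdh18 without H3WT replicate 3 (adjusted p = 0.048).

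Other cadherins passed the test in both directions. From the classical and type II list, edgeR, DESeq2 and limma-voom each called 1 lower and 1 higher. For edgeR the shares of all genes were 1.05% and 0.935%, and for DESeq2 3.84% and 3.35%. At an unadjusted p under 0.05 in edgeR, 5 of that list were lower and 2 higher, where 8.61% and 7.78% of all genes were. Of 15 classical and type II cadherins, Cdh11, a mesenchymal cadherin, fell to 66.8, 95.1 and 92.0 CPM in H3K9M libraries, against 196, 208 and 153 CPM in H3WT libraries (log2 fold change -1.13 ± 0.16, edgeR adjusted p = 0.0136). Cdh16, known from kidney epithelium, rose to 2.82, 3.03 and 3.80 CPM in H3K9M, against 1.03, 0.883 and 0.911 CPM in H3WT (1.77 ± 0.27, edgeR adjusted p = 0.0216). Cdh2, the main cadherin of cardiomyocyte junctions, averaged 717 ± 37.2 CPM in H3K9M and 684 ± 51.4 CPM in H3WT (edgeR adjusted p = 0.765). Of 7 FAT, Dachsous and CELSR genes, Dchs1, the ligand of Fat4, fell to 16.7, 25.0 and 25.3 CPM in H3K9M, against 43.5, 40.2 and 36.8 CPM in H3WT (-0.85 ± 0.16, edgeR adjusted p = 0.0413). Fat4, Fat1 and the kinase gene Fjx1 had log2 fold changes of -0.20 ± 0.18, -0.11 ± 0.11 and -0.52 ± 0.25. The Cdh11 call was lost without H3WT replicate 2 (adjusted p = 0.073). The Dchs1 call was lost without H3K9M replicate 2 (0.0987) or 3 (0.0831) or without H3WT replicate 1 (0.0864) or 2 (0.15). The Cdh16 call was lost without H3K9M replicate 1 (0.0544), 2 (0.0753) or 3 (0.0877) or without H3WT replicate 2 (0.109).

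Of 35 tested genes linked to protocadherin signalling and cleavage 0 passed in edgeR, with 20 negative and a median of -0.03. At an unadjusted p under 0.05 in edgeR, 4 were lower and 6 higher, where 8.61% and 7.78% of all genes were. DESeq2 called 2 lower and 0 higher, against 3.84% and 3.35% of all genes, and limma-voom called 0. The protein kinase C substrates Marcks and Marcksl1 had the smallest p. Marcks averaged 227 ± 28.8 CPM in H3K9M and 360 ± 67.9 CPM in H3WT (log2 fold change -0.67 ± 0.15, edgeR adjusted p = 0.0645; DESeq2 adjusted p = 0.0003). Marcksl1 averaged 70.6 ± 13.3 CPM in H3K9M and 110 ± 13.0 CPM in H3WT (-0.64 ± 0.14, edgeR adjusted p = 0.0638; DESeq2 adjusted p = 0.000802). Without H3WT replicate 3 edgeR called Marcks (adjusted p = 0.0208) and Marcksl1 (0.0411), and it called Marcksl1 without H3K9M replicate 2 (0.0432). Ctnnb1 (-0.12 ± 0.07) and Rhoa (0.07 ± 0.08), the highest of the list, did not pass.

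Of 24 tested genes that border the clusters on chromosome 18, 0 passed in edgeR, 12 were negative and 12 positive, and the median was 0.01. At an unadjusted p under 0.05 in edgeR, 1 was lower and 1 higher, where 8.61% and 7.78% of all genes were. DESeq2 called 0 lower and 1 higher, against 3.84% and 3.35% of all genes, and limma-voom called 0. Taf7, a transcription factor subunit gene that lies between the beta and gamma clusters, averaged 8.62 ± 2.64 CPM in H3K9M and 8.35 ± 1.16 CPM in H3WT (log2 fold change 0.04 ± 0.24), and it was named after its value was seen. Pcdh1 averaged 35.4 ± 3.56 CPM in H3K9M and 27.3 ± 2.34 CPM in H3WT (0.37 ± 0.11, edgeR adjusted p = 0.131; DESeq2 adjusted p = 0.043). Tmco6 had -0.47 ± 0.17 (edgeR adjusted p = 0.215), and Ik and Ankhd1, the highest of the list, had -0.04 ± 0.08 and 0.10 ± 0.06.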

How the data were processed

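Raw read counts per gene were deposited by the authors, 1 column for each of 6 libraries. Per the submitters' processing notes HISAT2, featureCounts, DESeq2 and mm10 were used; the sources used here give no versions, no strand setting and no rule for reads that overlap several genes. The second table holds the authors' DESeq2 comparison: a mean normalised count (deposited as a signal), a log2 fold change, p-values and a Wald score, which the authors deposited and which was not used.

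Rows with enough reads by filterByExpr (at least 10 counts, 15 in total) were scaled by TMM. The quasi-likelihood test came from edgeR 4.0.16 (R 4.3.3) on the 2 groups, adjusted by Benjamini-Hochberg across all tested genes, with 0.05 as the threshold. CPM are counts per 1000000 of TMM-scaled library size, given as mean ± SD over 3 libraries. A standard error is the log2 fold change's size divided by the root of F. Beta values are those of the deposited rows. Own reads of alpha and gamma genes, and cluster sums, come from a fit to the same table in which shared reads have 1 row per cluster, with 14746 genes tested. Exon lengths come from GENCODE M21. The fits were tested on simulated counts with known changes. For the split, the simulation added and then subtracted the same shared reads, so it could not check which reads are shared.

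Members and lists were chosen with earlier results of these data known. Of each gene list the text names every gene past the test, the 2 genes of lowest p and the 2 of highest mean CPM. The cell marker lists are a separate set. Of them the text names those past the test in edgeR, and Eng and Tubb3 as the highest of their lists. An exact two-sided permutation of 3 against 3 libraries cannot reach below p = 0.1. The common dispersion was 0.0353, and standard errors had a median of 0.133. Counts of replicate pairs differed far beyond sampling noise (chi-square per gene 26.5 to 118). Alternatives were DESeq2 1.42.0, voom of limma 3.58.1, RLE factors, 2 other filters, a threshold of 0.1, a replicate block and fits without each library.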

Additional observations from a re-analysis of the deposited data

How the results depend on the processing

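Over all genes, 138 higher and 155 lower calls became 475 and 544 with DESeq2, 31 and 27 with the replicate number as a block, and 308 and 356 at an adjusted p of 0.1. Without 1 library at a time they were 30 to 149 and 30 to 223. Beta genes called lower numbered 6 with DESeq2 and 4 at an adjusted p of 0.1, against 0 in edgeR, and 0 under the block, with RLE factors, in limma-voom, under both other filters and without any 1 library. Gamma genes called from own reads numbered 2 lower and 1 higher with DESeq2, and 2 lower (Pcdhga4 and Pcdhgb6, adjusted p = 0.0441 and 0.0335) when the lowest gamma row stood for the shared reads; they were 0 under the block. The lowest gamma row as shared reads also turned Pcdhgb4 (-0.0498), Pcdhga11 (-0.0926) and Pcdhga12 (-0.105). That row took more own reads from H3K9M libraries than from H3WT libraries, so these lower calls and turns are partly built in. Deviations from the group mean had correlations of -0.157, 0.0346 and -0.0694 between libraries of like replicate number. Between the other H3K9M and H3WT libraries they ran from -0.102 to 0.163. With so few libraries these values cannot decide whether libraries were paired. Under the block Dchs1, Cdh11 and Cdh16 lost their edgeR call (adjusted p = 0.136, 0.065 and 0.103). The sample titles also carry M numbers, of which the groups share M1 and M5 (replicates 1 and 3), while replicate 2 is M3 in H3K9M and M2 in H3WT; the labels do not say what they mark. With these as a replicate block, chosen after seeing the data, 1 residual degree of freedom remained and edgeR called 0 genes (404 higher and 544 lower at an unadjusted p under 0.05), so Atf7ip, Dchs1, Cdh11 and Cdh16 lost their call, and Pcdhga10 (0.0857), Pcdhgb7 (0.0167), Pcdhgc4 (0.051), Rad21 (0.0269) and Fat1 (0.0147) turned.

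Gamma genes with every H3K9M library higher numbered 1 to 4 without 1 library. The share over all genes was not computed for those fits. Groups of fewer libraries come apart more readily, so this range is not a result about gamma genes. A filter of 1 CPM in at least 3 libraries removed every alpha row but that of Pcdhac2, which had 0.047 in the main fit. Negative alpha rows thus went from 13 to 0 by removal, and no alpha row turned. Summed levels of the beta cluster kept their direction, from -1.05 to -0.79 without 1 library and -1.08 without Pcdhb22. Directions that turned without 1 library had ranges of -0.93 to 0.74 for Pcdhb6, -0.011 to 0.49 for Pcdhb12, -0.61 to 0.034 for Pcdhb18, -0.15 to 0.026 for Pcdhga10, -0.16 to 0.0032 for Pcdhgb7, -0.14 to 0.22 for Pcdhga11, -0.028 to 0.24 for Pcdhga12, -0.28 to 0.13 for Pcdhgc4, -0.073 to 0.022 for Rad21, -0.36 to 0.020 for Fat4 and -0.11 to 0.014 for Ik. The causes were not tested. Alpha genes had the fewest reads, and most beta genes have under 2 CPM.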
